A study of Mus musculus with 9 samples.

Results

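The endoplasmic reticulum (ER) receives, folds and inspects the proteins a cell secretes or places in its membranes. Proteins enter through the Sec61 channel, are folded by Hsp70, Hsp90, lectin and disulfide isomerase chaperones, and are sent for degradation by the proteasome when folding fails. When unfolded proteins build up, the membrane sensors IRE1, PERK and ATF6 start the unfolded protein response, which can raise transcription of the chaperone and degradation genes. Dendritic cells carry a large ER that makes MHC molecules, cytokines and receptors, and calreticulin and Pdia3 also help load peptide onto MHC class I.

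The 33 genes described here are a list of ER chaperone, translocon and ER-associated degradation genes, chosen by name from 38887 rows of a table of estimated counts. For each symbol the row with the most counts was taken, and each of the 33 symbols had 1 row that matched 1 gene. All 33 passed the filter on low counts, among 14363 genes tested. The table holds RNA-seq of mouse bone marrow-derived dendritic cells (BMDC), which are grown in culture from marrow precursors. The groups were untreated cells, cells after 2 h of lysophosphatidic acid (LPA, a lipid that signals through G protein-coupled receptors) and cells after 6 h of LPA, with 3 libraries each. The series title sets the experiment within work on tumor-derived LPA and type I interferon in ovarian cancer. Mouse strain, LPA dose, any vehicle and the harvest time of untreated cells are not in the labels. Nothing there ties the replicates of a group to separate mice or cultures, so the spread behind each p-value may be technical only.

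Libraries totalled 29628817 to 84596899 estimated counts, the shallowest being LPA 6 h replicate 1 and the deepest LPA 2 h replicate 2. In a library a member other than Sec61g had between 1444 and 138166 counts, while Sec61g had as few as 69. Of the 8 dendritic cell markers and the 7 macrophage markers examined, all averaged at least 1 CPM (counts of a gene scaled to equal library totals). Summed dendritic cell markers were at 5695 to 6587 CPM in untreated libraries, 5756 to 6405 CPM at 2 h and 5128 to 5572 CPM at 6 h, and summed macrophage markers at 916.5 to 950.4, 851.3 to 963.5 and 779.2 to 844.0 CPM in the same order. The sums hide single markers that moved in either direction. In that order Ciita averaged 80.6, 22.1 and 18.4 CPM and Irf8 262.8, 213.5 and 283.3 CPM. Among the macrophage markers Fcgr1 averaged 32.6, 23.6 and 13.8 CPM and Mertk 61.2, 56.6 and 101.7 CPM. Among the 8 B cell and plasma cell markers 1, Ighm, averaged at least 1 CPM, at 10.8 CPM in untreated, 8.47 CPM at 2 h and 1.72 CPM at 6 h. The plasma cell markers Jchain and Mzb1 were at 0.0595 and 0.0141 CPM in untreated libraries. The part of these marker differences in the results was not tested. LPA 2 h replicate 2 stood apart from the other 2 h libraries in a principal component analysis. It was the lowest 2 h library in 19 of the 33 members, and LPA 2 h replicate 3 was the highest in 24 of 33. LPA 6 h replicate 1 was the lowest 6 h library in 26 of 33.

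After 6 h of LPA 10 of the 13 chaperones, co-chaperones and disulfide isomerases among the members were modestly lower, while the 3 stress sensor genes were higher. At 6 h 16 of the 33 members fell (48.5%, against 25.7% of all tested genes) and 6 rose (18.2%, against 26.4% of all tested genes), called at a Benjamini-Hochberg adjusted p under 0.05 in edgeR's quasi-likelihood test. The 6 that rose were Ern1, Dnajb9, Eif2ak3, Syvn1, Sec62 and Atf6. The members' log2 fold changes ran from -0.51 to 0.58 with a median of -0.13, beside a median of 0.007 over all genes tested. In 27 members (81.8%) the 6 h and untreated libraries did not overlap, 21 of them lower and 6 higher at 6 h, against 63.0% of all tested genes. Without LPA 6 h replicate 1, 13 members fell and 6 rose, beside 3385 and 3420 of 14601 tested genes. This fit does not pair libraries by replicate number. With the numbers as a block, Hspa5 and Manf were also called lower at 6 h. Because these are bulk samples, fewer cells of a type and less RNA per cell cannot be told apart.

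At 2 h smaller shares of the members than of all tested genes were called. There 5 fell (15.2%, against 19.2% of all tested genes), Hyou1, Pdia4, Creld2, Edem1 and Sdf2l1, and 4 rose (12.1%, against 19.3% of all tested genes), Atf6, Ern1, Dnajb9 and Sec62. The median log2 fold change was -0.04, beside -0.001 over all genes, and 12 members (36.4%) had non-overlapping groups, against 48.2% of all tested genes. Without untreated replicate 3, 3 members fell at 2 h, beside 2134 of 14589 tested genes. Without LPA 2 h replicate 2 the counts were 5 lower and 5 higher, beside 2849 and 2731 of 14457 tested genes. Both times were compared with the same 3 untreated libraries, so their results are not independent. Taking both together, 4 members rose at both times, 3 fell at both times, 13 fell at 6 h but were not called at 2 h, and 9 were called at neither time. These joint patterns were not counted over all tested genes, so the counts only describe the members. Among the 16 members that fell at 6 h, LPA 2 h replicate 2 was the lowest 2 h library in 14 and LPA 2 h replicate 3 the highest in 14.

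**Figure D1:**
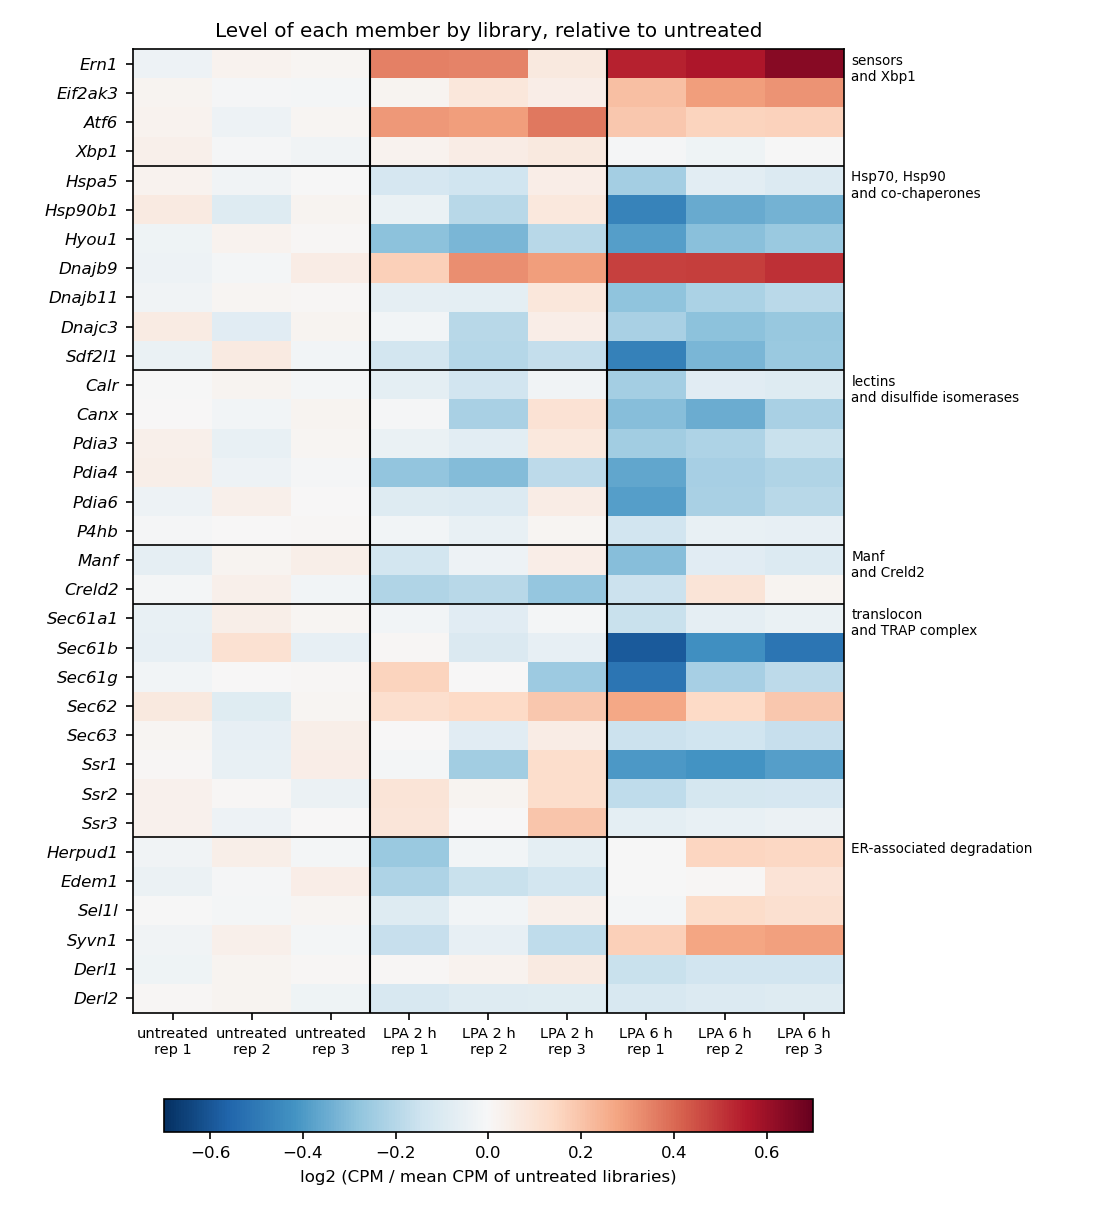
Heat map of the 33 members (rows, grouped by role) in the 9 libraries (columns, untreated, LPA 2 h and LPA 6 h), coloured by log2 of CPM over the mean CPM of the untreated libraries. Most chaperone and translocon rows are blue (lower) in the 6 h columns, while Ern1, Dnajb9, Eif2ak3 and Syvn1 are red (higher).

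Summed over the 33 members, the level was 11291, 11112 and 11266 CPM in the untreated libraries, 10780, 10364 and 11460 CPM at 2 h and 9600, 10204 and 10328 CPM at 6 h. With TMM-scaled totals the 6 h libraries were below all the others, and the 2 h libraries overlapped the untreated ones. The margin to the 2 h group was narrow. LPA 6 h replicate 3 was at 10328 CPM and LPA 2 h replicate 2 at 10364 CPM. Their TMM factors were 1.019 and 1.001 in that order. On plain totals the order of these libraries reverses, so the 6 h and 2 h groups overlap there. As a share of the TMM-scaled library totals, not of the plain totals, the genes took 1.12% in untreated cells, 1.09% at 2 h and 1.0% at 6 h. The summed level of the sensors and Xbp1 was higher, at 408 ± 5.22 CPM at 6 h against 359 ± 3.67 CPM in untreated cells (SD, n = 3 each).

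The levels per kilobase of transcript spanned a wide range among the 33 genes. Calr was highest, at 820.8 ± 10.4 CPM per kb in untreated libraries, followed by Hsp90b1 at 445.2 ± 23.6, Hspa5 at 357.8 ± 6.46, P4hb at 325.9 ± 1.45 and Pdia3 at 312.4 ± 9.74 CPM per kb (SD, n = 3 each). The untreated libraries of these 5 genes did not overlap between neighbours in that order. The sensors were among the lowest, with Atf6 at 12.7 ± 0.279, Eif2ak3 at 9.09 ± 0.123 and Ern1 at 8.85 ± 0.211 CPM per kb in untreated libraries. Eif2ak3 and Ern1 differed by less than the sum of their SDs there. Ern1 reached 13.2 ± 0.476 CPM per kb at 6 h and so passed Eif2ak3, which was at 11.0 ± 0.417 CPM per kb there.

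**Figure D2:**
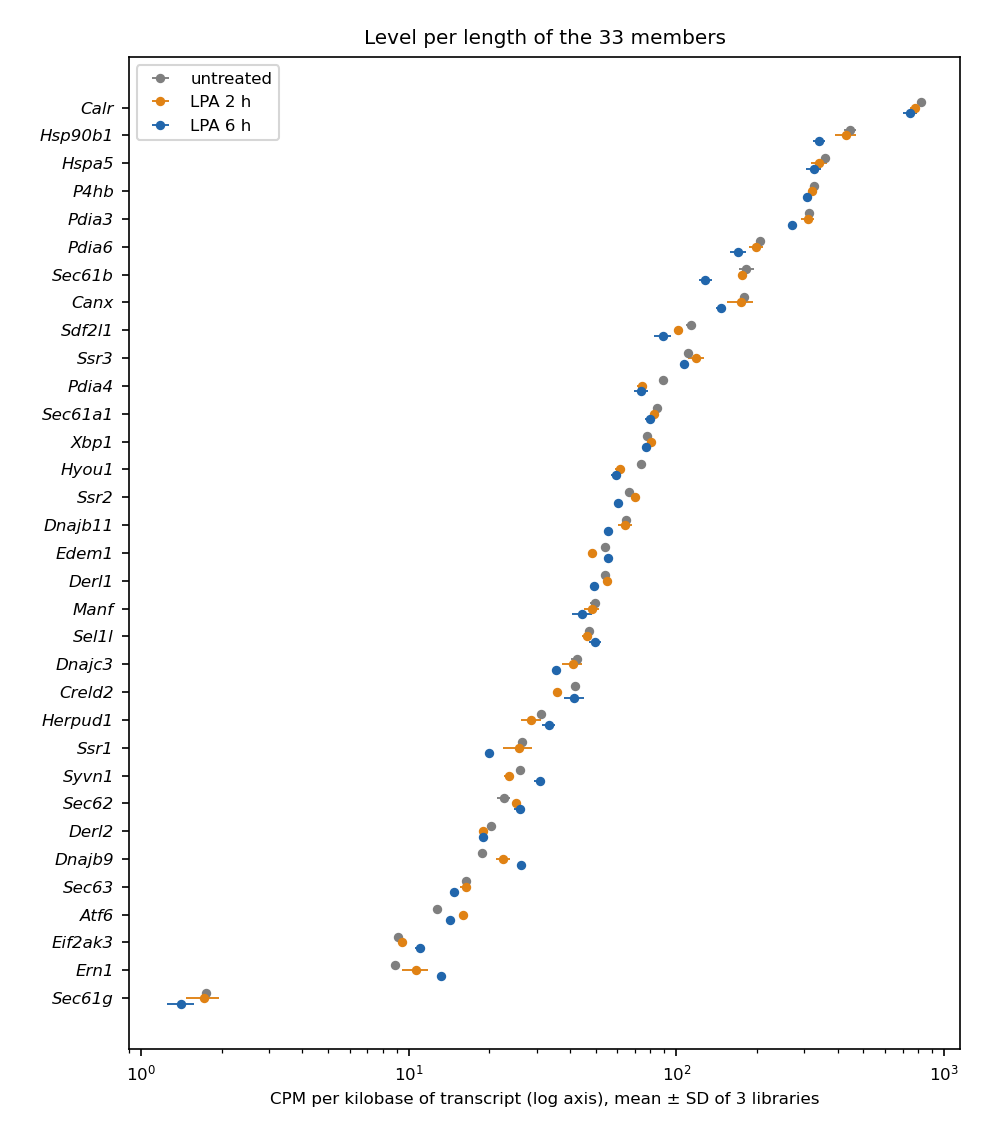
Level of each of the 33 members in CPM per kilobase of transcript on a log axis, mean and SD of 3 libraries, for untreated, LPA 2 h and LPA 6 h. The genes are ordered by the untreated level, from Calr at 820.8 CPM per kb at the top to Sec61g at 1.74 CPM per kb at the bottom.

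All 3 sensor genes rose after LPA, Ern1 and Atf6 at both times and Eif2ak3 at 6 h. Of all tested genes 19.3% rose at 2 h and 26.4% at 6 h. Ern1 (ENSMUSG00000020715; GRCm38 chromosome 11, 106394650 to 106487852, minus strand) encodes IRE1, a kinase and endoribonuclease that splices Xbp1 mRNA. Its level was 59.8, 62.5 and 62.1 CPM in untreated libraries, 78.5, 78.2 and 64.3 CPM at 2 h and 89.1, 91.0 and 95.5 CPM at 6 h. The groups did not overlap, although the third 2 h library lay close to the untreated ones. Ern1 rose at 2 h by 0.26 ± 0.07 on the log2 scale (SE, edgeR adjusted p = 0.00948) and at 6 h by 0.58 ± 0.07 (edgeR adjusted p = 2.38e-05), which at 6 h is a difference of 49.6% and the largest rise among the members.

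Atf6 (ENSMUSG00000026663; chromosome 1, 170704674 to 170867771, minus strand) encodes a membrane-bound transcription factor that is cut free in the Golgi under ER stress. It was at 93.5, 89.7 and 92.9 CPM in untreated libraries, 113.4, 112.8 and 118.9 CPM at 2 h and 104.8, 102.5 and 103.0 CPM at 6 h. No groups overlapped, and the 2 h libraries were the highest. Atf6 rose by 0.32 ± 0.04 at 2 h (SE, log2 scale, edgeR adjusted p = 6.31e-05) and 0.17 ± 0.04 at 6 h (edgeR adjusted p = 0.0043).

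Eif2ak3 (ENSMUSG00000031668; chromosome 6, 70844515 to 70905245, plus strand) encodes PERK, which slows translation by phosphorylating eIF2alpha. Its level was 41.6, 40.8 and 40.6 CPM in untreated libraries, 41.6, 43.3 and 42.3 CPM at 2 h and 47.4, 50.2 and 51.0 CPM at 6 h. The 6 h libraries stood above all the others, and the 2 h and untreated libraries overlapped. The log2 difference was 0.05 ± 0.04 at 2 h (SE, edgeR adjusted p = 0.43), and Eif2ak3 rose by 0.27 ± 0.04 at 6 h (edgeR adjusted p = 0.000258). Eif2ak3 shares 485 exon bases with Gm43292 on the opposite strand, which has no row of its own. The part of Gm43292 reads in the Eif2ak3 counts was not tested.

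Xbp1 (ENSMUSG00000020484; chromosome 11, 5520659 to 5525893, plus strand), the transcription factor gene whose mRNA IRE1 splices, was at 168.7, 163.9 and 162.1 CPM in untreated libraries, 167.7, 170.9 and 172.8 CPM at 2 h and 164.0, 161.3 and 164.6 CPM at 6 h. Both treated groups overlapped the untreated one. The 6 h libraries lay below the 2 h ones, with a log2 difference of -0.06 between the times (edgeR adjusted p = 0.207). Against untreated, the log2 difference was 0.05 ± 0.04 at 2 h (SE, edgeR adjusted p = 0.357) and -0.01 ± 0.04 at 6 h (edgeR adjusted p = 0.785). Counts per gene do not separate the spliced from the unspliced form of Xbp1.

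**Figure D3:**
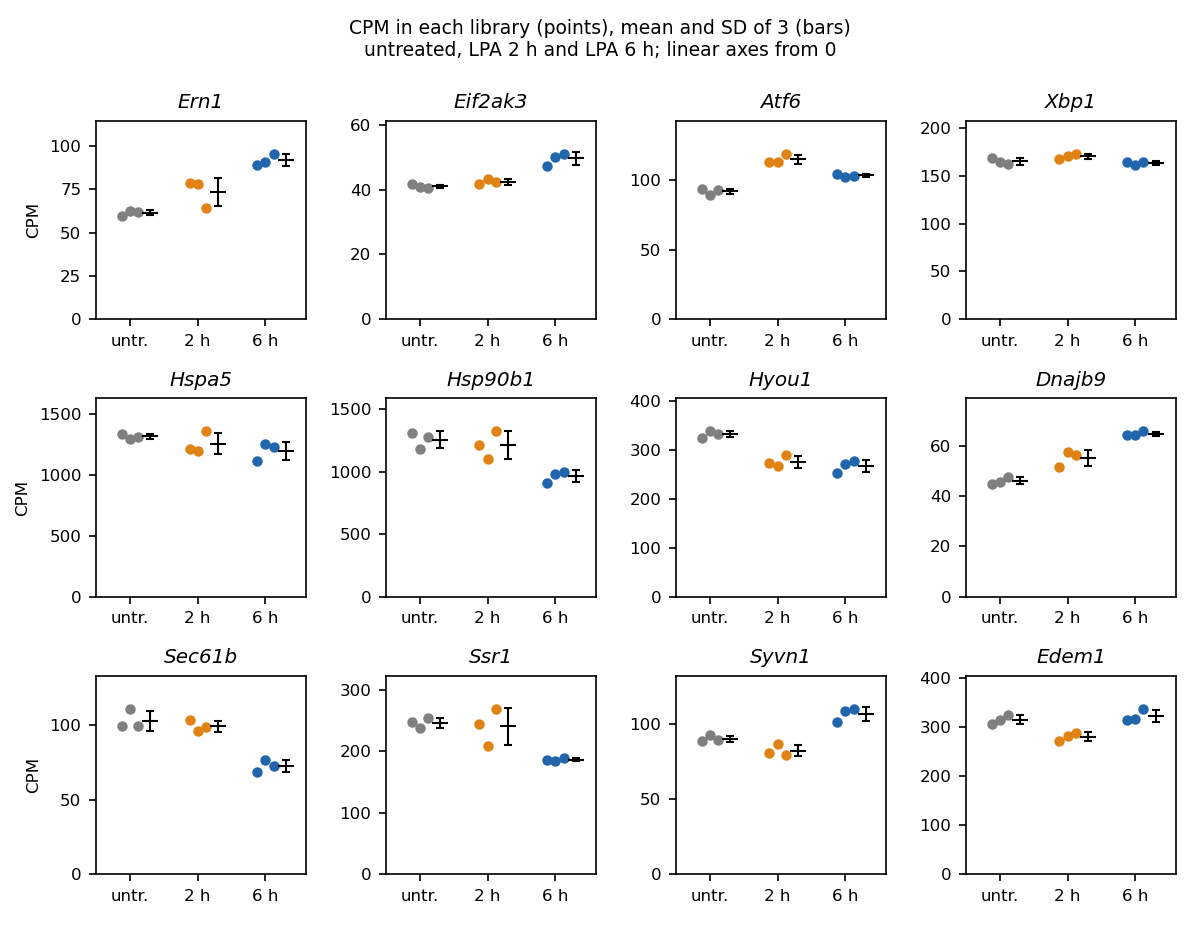
CPM of 12 members in each library (points; linear axes from 0), with the mean and SD of 3 libraries beside them, for untreated, LPA 2 h and LPA 6 h. Ern1, Dnajb9 and Eif2ak3 are highest at 6 h, Atf6 is highest at 2 h, and Hsp90b1, Sec61b and Ssr1 are lowest at 6 h. Both treated groups of Xbp1 overlap its untreated group.

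ATF6 and XBP1 are known to act on ER chaperone genes through the ER stress response element (ERSE), so the promoters were searched for it. Windows of 300 bases, from 250 before to 50 after the start (RefSeq, GRCm38.p6), were found for 27 of the 33 members. Both strands were searched for the ERSE (CCAAT, any 9 bases, then CCACG), the ERSE-II (ATTGG, any 1 base, then CCACG) and the XBP1 motif core TGACGTGG, whose reverse complement shares the bases CCACG with the other motifs. The ERSE was found in 8 of 27 members (29.6%), against 37 of 27025 genes with a window (0.137%). As the element is known from ER chaperone genes, this excess is not a finding of these data. Its first base lay between positions -212 and -44 relative to the start, with 2 matches in Hsp90b1. The ERSE-II was found in 2 members (7.41%, against 0.0444% of genes) and the XBP1 core in 0 of 27 (against 0.714% of genes). A match describes the letters and is not shown here to be a bound site. The matches (the nearer to the start for Hsp90b1) are printed because these genes include the main chaperones, with the CCAAT and CCACG blocks or their reverse complements in capitals and 12 flanking bases, 5′ to 3′ on the strand of the gene.
Hspa5, chr2:34772013-34772055, plus strand: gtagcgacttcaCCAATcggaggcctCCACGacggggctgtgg
Hsp90b1, chr10:86705521-86705563, minus strand: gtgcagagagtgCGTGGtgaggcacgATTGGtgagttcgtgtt
Dnajc3, chr14:118937815-118937857, plus strand: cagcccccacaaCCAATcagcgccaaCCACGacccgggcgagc
Calr, chr8:84847063-84847105, minus strand: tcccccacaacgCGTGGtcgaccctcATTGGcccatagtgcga
Canx, chr11:50325788-50325830, minus strand: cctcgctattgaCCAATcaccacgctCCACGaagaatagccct
Pdia6, chr12:17266479-17266521, plus strand: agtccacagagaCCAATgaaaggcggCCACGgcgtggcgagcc
Creld2, chr15:88819508-88819550, plus strand: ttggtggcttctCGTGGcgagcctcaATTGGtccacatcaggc
Syvn1, chr19:6046520-6046562, plus strand: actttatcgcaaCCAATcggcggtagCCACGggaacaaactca
Dnajb11 (ERSE-II), chr16:22857840-22857874, plus strand: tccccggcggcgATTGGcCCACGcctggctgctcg
Herpud1 (ERSE-II), chr8:94386365-94386399, plus strand: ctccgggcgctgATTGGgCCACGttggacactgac

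The members that hold an ERSE moved in both directions. At 6 h, when 25.7% of all tested genes fell and 26.4% rose, 5 of these 8 genes fell (Hsp90b1, Dnajc3, Calr, Canx and Pdia6), Syvn1 rose, and Hspa5 and Creld2 were not called. Of the 17 members whose window held neither element, 7 fell and 4 rose at 6 h. With so few genes in each class, no difference between the classes is drawn from these counts. At 2 h, when 19.2% of all tested genes fell and 19.3% rose, 1 of the 8 ERSE genes, Creld2, fell and 0 rose. These calls are by edgeR's test at an adjusted p under 0.05. Atf6, Hyou1, Manf, Sec61a1, Ssr2 and Derl1 had no window in the table used.

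Among the Hsp70 and Hsp90 chaperones and their partners, 5 of 7 fell at 6 h (71.4%, against 25.7% of all tested genes). The 1 that rose was Dnajb9 (14.3%, against 26.4% of all tested genes). Hspa5 (ENSMUSG00000026864; chromosome 2, 34771970 to 34777547, plus strand) encodes BiP, the main Hsp70 of the ER and a repressor of the sensors. It was at 1337.9, 1290.5 and 1313.6 CPM in untreated libraries, 1213.2, 1195.1 and 1355.0 CPM at 2 h and 1113.8, 1249.1 and 1229.7 CPM at 6 h. The 6 h libraries were all below the untreated ones, while the 2 h libraries spread across both. The log2 difference of Hspa5 was -0.07 ± 0.06 at 2 h (SE, edgeR adjusted p = 0.405) and -0.13 ± 0.06 at 6 h (edgeR adjusted p = 0.0753). In a fit with replicate numbers blocked, the 6 h difference was -0.14 (edgeR adjusted p = 0.0479), and in a fit of only the 6 libraries compared, without a block, it was also -0.14 (edgeR adjusted p = 0.0223).

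Hsp90b1 (ENSMUSG00000020048; chromosome 10, 86690209 to 86705509, minus strand) encodes GRP94, the ER Hsp90 that folds Toll-like receptors and integrins. Its level was 1312.9, 1183.5 and 1276.3 CPM in untreated libraries, 1219.2, 1101.1 and 1323.6 CPM at 2 h and 909.5, 986.1 and 999.8 CPM at 6 h. All 3 libraries at 6 h were below all the others. Hsp90b1 fell by 23.2% at 6 h, a log2 fold change of -0.38 ± 0.07 (SE, edgeR adjusted p = 0.000508), against -0.05 ± 0.07 at 2 h (edgeR adjusted p = 0.598).

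Hyou1 (ENSMUSG00000032115; chromosome 9, 44379490 to 44392369, plus strand), which encodes the large Hsp70-like protein GRP170 that exchanges nucleotide on BiP, was already lower at 2 h. Its level was 324.3, 337.0 and 332.7 CPM in untreated libraries, 271.7, 265.9 and 289.1 CPM at 2 h and 253.3, 270.8 and 276.6 CPM at 6 h. The treated libraries were below the untreated ones at both times and overlapped each other. Hyou1 changed by -0.27 ± 0.05 at 2 h (SE, log2 scale, edgeR adjusted p = 0.000871) and -0.31 ± 0.05 at 6 h (edgeR adjusted p = 0.000174).

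Dnajb9 (ENSMUSG00000014905; chromosome 12, 44205559 to 44210326, minus strand) encodes ERdj4, a J-domain partner of BiP known as a target of the IRE1 and XBP1 branch. It was at 45.0, 45.6 and 47.7 CPM in untreated libraries, 51.7, 57.7 and 56.5 CPM at 2 h and 64.3, 64.4 and 65.8 CPM at 6 h. The 3 groups formed 3 separate steps. Dnajb9 rose by 0.26 ± 0.05 at 2 h (SE, log2 scale, edgeR adjusted p = 0.0012) and by 0.49 ± 0.05 at 6 h (edgeR adjusted p = 5.98e-06), a difference of 40.7% at 6 h.

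The other J-domain partners went the opposite way. Dnajb11, which encodes ERdj3, fell at 6 h with a log2 fold change of -0.23 ± 0.05 (SE, edgeR adjusted p = 0.00186). Dnajc3, which encodes a co-chaperone that also inhibits eIF2alpha kinases, changed at 6 h by -0.26 ± 0.06 (edgeR adjusted p = 0.00322). Sdf2l1, whose product works with BiP and ERdj3, was at 121.7, 131.6 and 124.0 CPM in untreated libraries, 115.1, 109.6 and 112.2 CPM at 2 h and 90.8, 100.9 and 104.9 CPM at 6 h. Both treated groups were below the untreated one without overlap. Sdf2l1 changed by -0.16 ± 0.06 at 2 h (SE, edgeR adjusted p = 0.0337) and by -0.35 ± 0.06 at 6 h (edgeR adjusted p = 0.000233). The 2 h call of Sdf2l1 was lost without untreated replicate 2 (-0.13, edgeR adjusted p = 0.124) and without untreated replicate 3, LPA 2 h replicate 2 or LPA 2 h replicate 3 (adjusted p from 0.0563 to 0.0688).

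The lectin chaperones and disulfide isomerases were lower at 6 h in 5 of 6 genes (83.3%, against 25.7% of all tested genes), and none was higher (against 26.4%). Their summed level was 4231, 4502 and 4584 CPM at 6 h, against 5023, 5005 and 5015 CPM in untreated libraries. Canx, which encodes the membrane lectin chaperone calnexin, changed by -0.29 ± 0.07 at 6 h (SE, log2 scale, edgeR adjusted p = 0.00418). Its 2 h libraries were far apart, at 762.0, 654.4 and 822.1 CPM, around the untreated level of 755.2 to 776.3 CPM. Calr, which encodes the soluble lectin chaperone calreticulin, was at 1521.3, 1695.7 and 1686.4 CPM at 6 h, against 1788.2, 1817.4 and 1772.5 CPM in untreated libraries. Calr lay just past the threshold at -0.13 ± 0.05 (SE, edgeR adjusted p = 0.0473). Its call was lost when any untreated library, LPA 6 h replicate 1 or LPA 6 h replicate 3 was left out, and without LPA 6 h replicate 1 the log2 difference was -0.09 (edgeR adjusted p = 0.185).

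Pdia4, which encodes a disulfide isomerase that binds BiP, was at 219.4, 208.1 and 211.3 CPM in untreated libraries, 175.6, 172.5 and 187.3 CPM at 2 h and 165.5, 181.5 and 183.9 CPM at 6 h. The treated libraries were below the untreated ones at both times. Pdia4 changed by -0.25 ± 0.05 at 2 h (SE, log2 scale, edgeR adjusted p = 0.00182) and -0.27 ± 0.05 at 6 h (edgeR adjusted p = 0.000898). Pdia3, the oxidoreductase partner of calnexin and calreticulin, changed by -0.21 ± 0.05 at 6 h (edgeR adjusted p = 0.00448) and Pdia6, another BiP-associated isomerase, by -0.27 ± 0.06 (edgeR adjusted p = 0.0022). P4hb, the classical protein disulfide isomerase, had 849.3, 898.9 and 894.9 CPM at 6 h, against 928.0, 932.5 and 936.3 CPM in untreated libraries. These P4hb groups did not overlap, but the log2 difference of -0.08 ± 0.04 was not called (SE, edgeR adjusted p = 0.125).

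Manf and Creld2 encode small ER proteins that cells can also secrete. Creld2 was at 56.5, 58.5 and 56.4 CPM in untreated libraries, 49.4, 49.9 and 47.3 CPM at 2 h and 51.5, 60.7 and 57.9 CPM at 6 h. The 2 h libraries were below all the others, and the 6 h libraries overlapped the untreated ones. Creld2 changed by -0.22 ± 0.06 at 2 h (SE, log2 scale, edgeR adjusted p = 0.00802), and its log2 difference was -0.01 at 6 h (edgeR adjusted p = 0.917). Manf had 90.6, 105.3 and 104.2 CPM at 6 h, against 106.4, 112.6 and 114.6 CPM in untreated libraries. Every 6 h library of Manf lay below the untreated range, with a log2 difference of -0.15 ± 0.06 (SE, edgeR adjusted p = 0.0637). The Manf difference was also -0.15 with the replicate block (edgeR adjusted p = 0.00744) and in a fit of only the 6 libraries compared (edgeR adjusted p = 0.0334). Without LPA 6 h replicate 1 it was -0.09 (edgeR adjusted p = 0.227). Manf shares 146 exon bases with Dcaf1 on the opposite strand, which averaged 30.6 ± 0.989 CPM at 6 h against 24.0 ± 0.699 CPM in untreated libraries (SD, n = 3 each), and the part of Dcaf1 reads in the Manf counts was not tested.

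**Figure D4:**
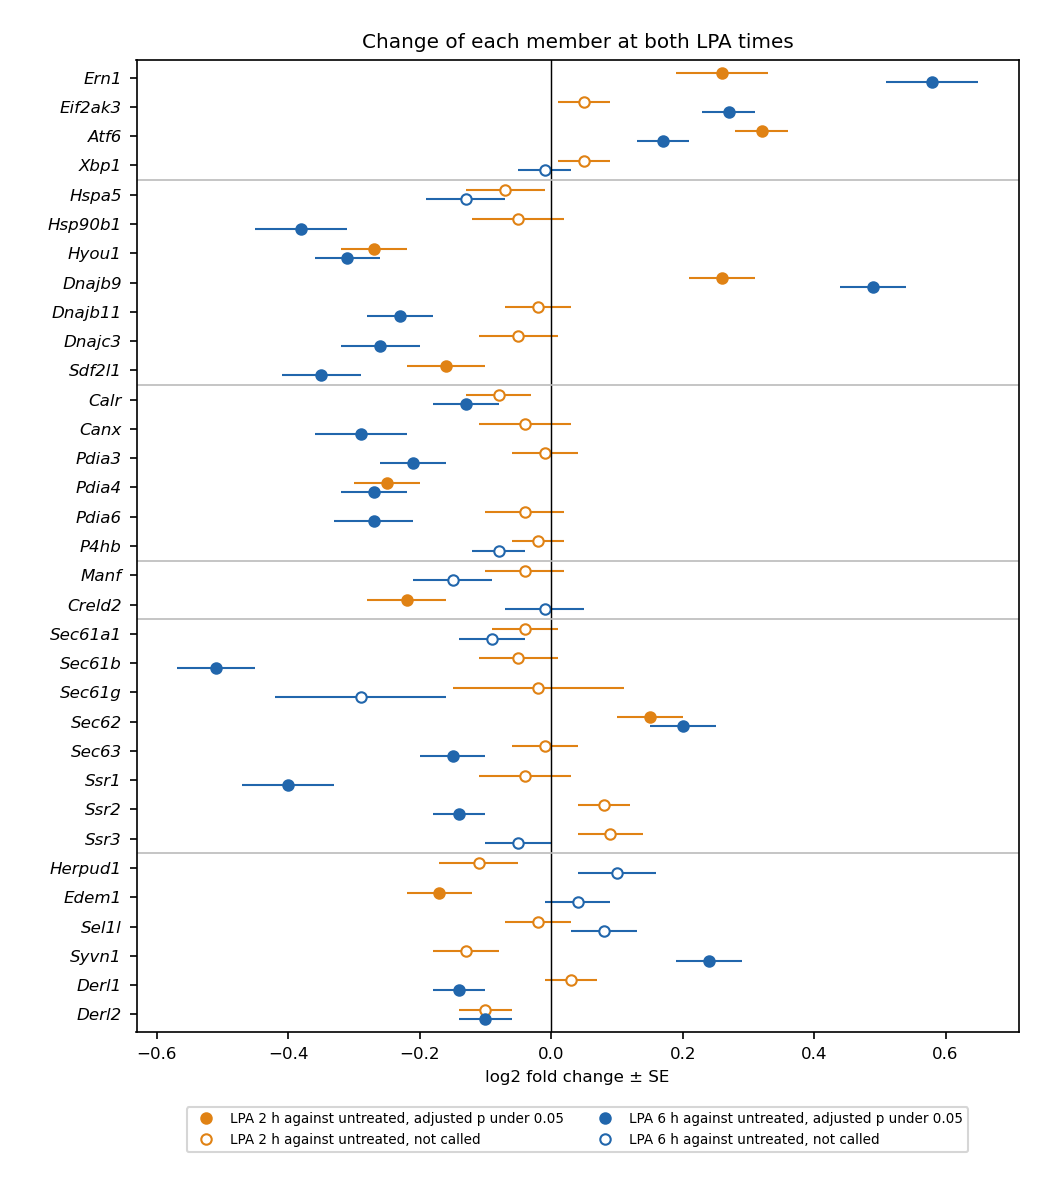
Log2 fold change with its SE of each of the 33 members against untreated, at LPA 2 h (orange) and LPA 6 h (blue), filled where edgeR's adjusted p was under 0.05. At 6 h 16 filled points lie below 0 and 6 above, between -0.51 for Sec61b and 0.58 for Ern1.

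The translocon genes changed unevenly at 6 h, with 4 of 8 lower and 1 higher. Of all tested genes 25.7% fell and 26.4% rose at 6 h. Sec61b (ENSMUSG00000053317; chromosome 4, 47474658 to 47483242, plus strand) encodes the beta subunit of the Sec61 channel and had the largest fall among the members. Its level was 99.1, 110.8 and 99.1 CPM in untreated libraries, 103.4, 95.9 and 98.8 CPM at 2 h and 68.6, 76.5 and 72.3 CPM at 6 h. The 6 h libraries were well below all the others. Sec61b fell by 29.7% at 6 h, a log2 fold change of -0.51 ± 0.06 (SE, edgeR adjusted p = 1.53e-05), against -0.05 at 2 h (edgeR adjusted p = 0.5). It shares 165 bases at 95.8% identity with Gm5870 and 163 bases at 96.9% identity with Gm33666, which have no rows of their own. The part of their reads in the Sec61b counts was not tested.

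The channel's pore subunit gene Sec61a1 was at 240.3, 256.4 and 259.3 CPM at 6 h, against 258.3, 276.0 and 270.3 CPM in untreated libraries. These groups overlapped by a single library each way, and the log2 difference of -0.09 was not called (edgeR adjusted p = 0.12). Sec61a1 shares 549 exon bases with Gm44170 on the opposite strand, which has no row of its own. The part of Gm44170 reads in the Sec61a1 counts was not tested. The gamma subunit gene Sec61g averaged 2.63 ± 0.314 CPM at 6 h against 3.24 ± 0.0314 CPM in untreated libraries (SD, n = 3 each), with a log2 difference of -0.29 ± 0.13 (SE, edgeR adjusted p = 0.0814). Sec61g shares 420 bases at 100% identity with Gm10177, whose row averaged 42.3 ± 1.19 CPM at 6 h against 49.7 ± 0.801 CPM in untreated libraries. Because estimated counts divide such reads between the copies, the level of Sec61g is uncertain. Summed over both rows it was 44.9 ± 1.47 CPM at 6 h against 53.0 ± 0.777 CPM in untreated libraries, given as a description with no test.

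Ssr1, Ssr2 and Ssr3 encode the alpha, beta and gamma subunits of the translocon-associated protein (TRAP) complex beside Sec61. Ssr1 (ENSMUSG00000021427; chromosome 13, 37966605 to 37994217, minus strand) was at 247.5, 237.7 and 253.9 CPM in untreated libraries, 243.7, 208.1 and 268.5 CPM at 2 h and 186.1, 184.0 and 188.8 CPM at 6 h. The 6 h libraries were tightly grouped below all the others. Ssr1 fell by 24.4%, a log2 fold change of -0.40 ± 0.07 (SE, edgeR adjusted p = 0.000773). Ssr2 changed by -0.14 ± 0.04 (edgeR adjusted p = 0.0191), a call lost without untreated replicate 1 (adjusted p = 0.0651) or LPA 6 h replicate 1 (adjusted p = 0.063). Ssr3 was not called against untreated, at -0.05 (edgeR adjusted p = 0.394), although its 6 h libraries lay below the untreated ones.

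Sec62 and Sec63 encode membrane partners of Sec61 that serve proteins imported after translation, and they moved apart. Sec62 was at 94.0, 84.6 and 90.8 CPM in untreated libraries, 97.3, 99.1 and 102.2 CPM at 2 h and 108.4, 98.8 and 102.5 CPM at 6 h. All treated libraries were above the untreated ones. Sec62 rose by 0.15 ± 0.05 at 2 h (SE, log2 scale, edgeR adjusted p = 0.0357) and by 0.20 ± 0.05 at 6 h (edgeR adjusted p = 0.0057). The 2 h call was lost without untreated replicate 2 (0.11, edgeR adjusted p = 0.148) and also without untreated replicate 3, LPA 2 h replicate 1 or LPA 2 h replicate 3 (adjusted p from 0.0539 to 0.0864). Sec63 changed by -0.15 ± 0.05 at 6 h (edgeR adjusted p = 0.0177), a call lost without untreated replicate 1, untreated replicate 3 or LPA 6 h replicate 3 (adjusted p from 0.053 to 0.0794).

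Of the 6 genes of ER-associated degradation 1 fell at 2 h (16.7%, against 19.2% of all tested genes), and 1 rose and 2 fell at 6 h (16.7% and 33.3%, against 26.4% and 25.7%), shares near those of all tested genes. Syvn1 (ENSMUSG00000024807; chromosome 19, 6046576 to 6053712, plus strand) encodes HRD1, the ubiquitin ligase at the centre of the retrotranslocation complex. Its level was 88.5, 92.5 and 89.4 CPM in untreated libraries, 80.5, 86.5 and 79.7 CPM at 2 h and 101.3, 109.0 and 110.0 CPM at 6 h. The 3 groups were separate, lowest at 2 h and highest at 6 h. The 2 h difference of -0.13 ± 0.05 was at the threshold (SE, log2 scale, edgeR adjusted p = 0.0504), and at 6 h Syvn1 rose by 0.24 ± 0.05 (edgeR adjusted p = 0.00114). Syvn1 shares 91 exon bases with Mrpl49 on the opposite strand, whose reads cannot be told apart in a non-stranded library. Mrpl49 averaged 19.2 ± 0.247 CPM in untreated libraries, 15.8 ± 1.57 CPM at 2 h and 22.6 ± 0.293 CPM at 6 h (SD, n = 3 each), and its part in the Syvn1 counts was not tested.

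Edem1, which encodes a lectin that passes misfolded glycoproteins to degradation, was at 306.8, 314.2 and 325.2 CPM in untreated libraries, 271.9, 282.9 and 288.9 CPM at 2 h and 314.5, 317.3 and 337.6 CPM at 6 h. The 2 h libraries were below all the others. Edem1 changed by -0.17 ± 0.05 at 2 h (SE, log2 scale, edgeR adjusted p = 0.0124), and the 6 h difference was 0.04 (edgeR adjusted p = 0.544). The 2 h call was lost without untreated replicate 3 (edgeR adjusted p = 0.0651) or LPA 2 h replicate 1 (edgeR adjusted p = 0.0539).

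Sel1l, the adaptor of HRD1, and Herpud1, a membrane protein that recruits the complex, were not called at either time against untreated. The Sel1l log2 difference at 6 h was 0.08 (edgeR adjusted p = 0.211) and that of Herpud1 was 0.10 (edgeR adjusted p = 0.21). Derl1 and Derl2 encode derlins, which help move substrates back across the membrane. Derl1 had 153.9, 156.6 and 156.6 CPM at 6 h, against 168.3, 174.3 and 172.5 CPM in untreated libraries. The Derl1 groups did not overlap, and the gene changed by -0.14 ± 0.04 (SE, log2 scale, edgeR adjusted p = 0.0086). Derl2 was just past the threshold at -0.10 ± 0.04 (edgeR adjusted p = 0.0432), and its call was lost when any 1 of the 6 libraries was left out (adjusted p from 0.061 to 0.0969). It shares 231 exon bases with Mis12 on the opposite strand, which averaged 47.5 ± 0.602 CPM at 6 h against 38.4 ± 0.965 CPM in untreated libraries (SD, n = 3 each). The part of Mis12 reads in the Derl2 counts was not tested.

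The 6 h libraries were also compared with the 2 h libraries directly. In this comparison 14 of the 33 members fell (42.4%, against 24.4% of all tested genes) and 7 rose (21.2%, against 24.3% of all tested genes), and in 22 members (66.7%) the groups did not overlap, against 58.9% of all tested genes. The members that rose between the times were Syvn1, Ern1, Dnajb9, Eif2ak3, Creld2, Herpud1 and Edem1, so 3 of the 6 degradation genes were among them. Without LPA 2 h replicate 2 the counts were again 14 and 7, beside 3758 and 3667 of 14457 tested genes. Syvn1 had the largest difference of the 7, at 0.38 ± 0.05 on the log2 scale (SE, edgeR adjusted p = 0.000104). Sec61b had the largest fall, at -0.45 (edgeR adjusted p = 9.23e-05), followed by Ssr1 at -0.37 (edgeR adjusted p = 0.00184) and Hsp90b1 at -0.33 (edgeR adjusted p = 0.00171). Of the 8 translocon genes 5 fell between the times. The call of Ssr3, at -0.15 (edgeR adjusted p = 0.0271), was lost without any 1 of the 6 libraries other than LPA 2 h replicate 2 (adjusted p from 0.0524 to 0.0957), and its value was -0.10 without LPA 2 h replicate 3. That of Sec63, at -0.14 (edgeR adjusted p = 0.0239), was lost without LPA 2 h replicate 1 or 3 or LPA 6 h replicate 2 or 3 (adjusted p from 0.0536 to 0.0758). Hyou1 and Pdia4, which were lower at 2 h, were not called between the times, at -0.05 (edgeR adjusted p = 0.465) and -0.01 (edgeR adjusted p = 0.877).

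Other genes of the same organelle, in lists of 10 to 24 tested genes, did not share one direction. Their counts are to be read against all tested genes, of which 19.3% rose and 19.2% fell at 2 h, and 26.4% rose and 25.7% fell at 6 h. Among 24 other ER-associated degradation genes 8 rose and 1 fell at 2 h (33.3% and 4.17%), and 11 rose and 4 fell at 6 h (45.8% and 16.7%), where their median log2 fold change was 0.13. Rnf185, a ubiquitin ligase gene, averaged 47.1 ± 0.631 CPM at 6 h against 33.8 ± 0.107 CPM in untreated libraries, and Edem2, a paralog of Edem1, averaged 228.8 ± 4.1 CPM against 166.8 ± 7.35 CPM (SD, n = 3 each). The Edem2 rise was 0.46 ± 0.05 on the log2 scale (SE, edgeR adjusted p = 1.91e-05) and the Rnf185 rise 0.48 ± 0.05 (edgeR adjusted p = 1.37e-05). At 2 h the 2 smallest p-values in that list belonged to Ube2j2, an ER ubiquitin-conjugating enzyme gene (0.44 ± 0.05), and Edem3 (0.31 ± 0.05).

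Of 24 other ER folding factors 7 rose and 2 fell at 2 h (29.2% and 8.33%), and 5 rose and 4 fell at 6 h (20.8% and 16.7%), both below the shares of all tested genes at 6 h. Fkbp11, a prolyl isomerase gene known from secretory cells, was at 27.0 ± 1.66 CPM at 6 h against 13.4 ± 0.741 CPM in untreated libraries (SD, n = 3 each), a log2 rise of 1.01 ± 0.13 (SE, edgeR adjusted p = 0.000146). Txndc12, a thioredoxin-family gene, rose by 0.37 ± 0.05 at 6 h (edgeR adjusted p = 7.14e-05). At 2 h Mogs, which trims glucose from new glycans, changed by -0.26 ± 0.04 (edgeR adjusted p = 0.000569) and Uggt1, which puts a glucose back on unfolded glycoproteins, by -0.20 ± 0.05 (edgeR adjusted p = 0.00687).

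Genes that bring proteins to the channel and process them were mixed. Of 10 genes of the signal recognition particle and its receptor 6 rose and 0 fell at 2 h (60% higher), while 1 rose and 1 fell at 6 h (10% each). The 6 include Srp54a, Srp54b and Srp54c, close copies between which shared reads are divided, so these rises may not be independent of each other. The smallest p-values at 2 h were those of Srp54a (0.30 ± 0.06, uncertain because Srp54b and Srp54c are close copies) and Srp9 (0.20 ± 0.04). At 6 h Srp68 rose by 0.25 ± 0.05 (edgeR adjusted p = 0.000541) and Srp72 changed by -0.14 ± 0.05 (edgeR adjusted p = 0.0425), a call lost without untreated replicate 1, untreated replicate 3, LPA 6 h replicate 2 or LPA 6 h replicate 3 (adjusted p from 0.0659 to 0.159). Among 19 other translocon, insertion and signal peptidase genes 4 rose and 2 fell at 2 h (21.1% and 10.5%), and 7 rose and 4 fell at 6 h (36.8% and 21.1%). Get1, which encodes a receptor for tail-anchored proteins, was at 17.4 ± 0.463 CPM at 6 h against 9.24 ± 0.185 CPM in untreated libraries (SD, n = 3 each). Sec11c, a signal peptidase gene, rose by 0.42 ± 0.06 at 6 h (edgeR adjusted p = 5.34e-05), and at 2 h Emc3 (0.22 ± 0.04) and Emc7 (0.19 ± 0.05), of the membrane insertase, rose.

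Of 12 oligosaccharyltransferase genes 1 fell and 0 rose at 2 h (8.33% lower), and 3 fell and 2 rose at 6 h (25.0% and 16.7%). Magt1, one of its oxidoreductase subunits and a magnesium transporter, was at 79.7 ± 1.14 CPM at 6 h against 127.5 ± 4.82 CPM in untreated libraries (SD, n = 3 each), and Ostc changed by -0.37 ± 0.05 on the log2 scale (SE, edgeR adjusted p = 0.000124). At 2 h Magt1 changed by -0.25 ± 0.07 (edgeR adjusted p = 0.0168), a call lost without untreated replicate 1 or 3 (adjusted p = 0.0557 and 0.0624). Without LPA 2 h replicate 2 the Magt1 value was -0.16 (edgeR adjusted p = 0.027). Dad1 was not called at 2 h, at 0.13 (edgeR adjusted p = 0.0699). Among 15 COPII coat and retrieval genes 1 rose and 3 fell at 2 h (6.67% and 20%), and 4 rose and 4 fell at 6 h (26.7% each), with the falls at 2 h and both directions at 6 h close to those of all tested genes. Sec24c (-0.32 ± 0.05) and Sec31a (-0.21 ± 0.04) fell at 2 h. At 6 h Sec24d changed by -0.47 ± 0.06 (edgeR adjusted p = 3.56e-05) and Kdelr1, a receptor that returns ER proteins from the Golgi, by 0.36 ± 0.05 (edgeR adjusted p = 5.31e-05).

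A list of 14 genes joined targets and regulators of the PERK and ATF4 branch with Eif2s1, which encodes eIF2alpha, and with Eif2ak1, Eif2ak2 and Eif2ak4, which encode its other kinases. Of these 14 genes 7 rose and 4 fell at 2 h (50% and 28.6%), and 6 rose and 2 fell at 6 h (42.9% and 14.3%). Eif2s1 and Eif2ak2 fell at both times, and the others that fell at 2 h were Eif2ak4 and Atf3. Sesn2 averaged 51.3 ± 3.18 CPM at 2 h against 32.4 ± 1.2 CPM in untreated libraries (SD, n = 3 each), and was at 32.1 ± 2.77 CPM at 6 h. Trib3 had the other of the 2 smallest p-values at 2 h, with a log2 rise of 1.76 ± 0.15 (SE, edgeR adjusted p = 1.78e-05). At 6 h they belonged to Eif2ak2, an interferon-inducible eIF2alpha kinase gene (-1.27 ± 0.08), and Ppp1r15a, whose product removes the phosphate from eIF2alpha (0.47 ± 0.07). Among 13 other membrane stress factors 1 rose and 3 fell at 2 h (7.69% and 23.1%), and 3 rose and 2 fell at 6 h (23.1% and 15.4%). Mbtps1, the protease that cuts ATF6, changed by -0.13 ± 0.04 at 2 h (edgeR adjusted p = 0.0207), a call lost without untreated replicate 1, untreated replicate 3 or LPA 2 h replicate 1 (adjusted p from 0.0517 to 0.0815). Bok, at 2.03 CPM against 1.49 CPM in untreated libraries, changed by 0.44 ± 0.15 (edgeR adjusted p = 0.0315), a call lost without any 1 of the 6 libraries other than LPA 2 h replicate 2 (adjusted p from 0.055 to 0.132). At 6 h Creb3l2, which encodes another membrane-bound transcription factor, rose by 0.40 ± 0.07 (edgeR adjusted p = 0.000288) and Traf2, an adaptor of IRE1 signalling, changed by -0.33 ± 0.05 (edgeR adjusted p = 0.000202).

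**Figure D5:**
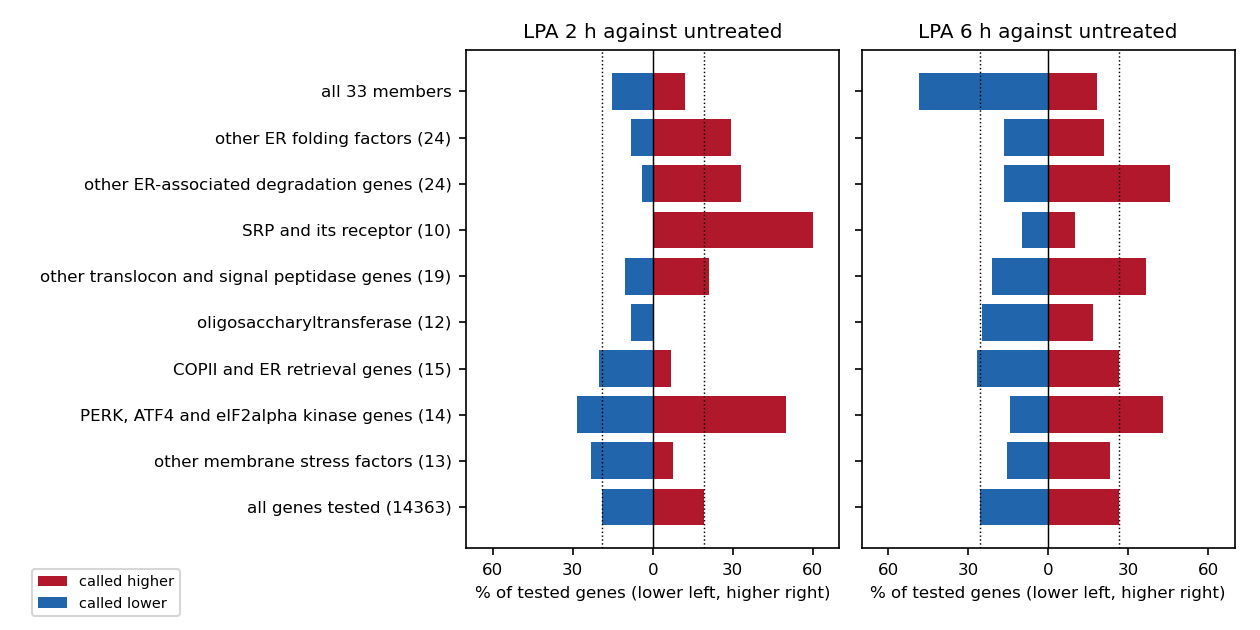
Share of tested genes called lower (to the left of 0) and higher (to the right) against untreated by edgeR at an adjusted p under 0.05, at LPA 2 h (left panel) and LPA 6 h (right panel), for the 33 members, 8 other lists with the number tested in brackets, and all genes tested (dotted lines). At 6 h the members reach 48.5% lower, against 25.7% of all genes, while the other degradation genes reach 45.8% higher.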

How the data were processed

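Non-stranded TruSeq mRNA libraries were prepared, per the labels' protocols. The deposited table holds each gene's estimated counts as whole numbers, without scaling. RSEM 1.2.3, DESeq2 and mm10 are named in the submitters' processing notes. RSEM divides reads shared by similar transcripts. For the aligner and annotation release, the sources used here give nothing.

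Transcript identifiers were matched to GENCODE M21 (GRCm38). Of 38887 rows 37776 matched 1 gene (98.46% of counts), 176 several and 935 none. The members and lists were chosen with earlier results of these data known. Members not named by the rule (sensors, Xbp1, Hspa5, Hsp90b1, the 4 largest rises and falls per time, the 2 smallest p-values per other list) are given by counts or ranges, or with values chosen after these were seen.

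The filter was filterByExpr (minimum count 10, minimum total 15). Libraries were scaled with TMM (factors 0.9744 to 1.028) and tested with edgeR 4.0.16 (glmQLFit, robust, and glmQLFTest; R 4.3.3) on all 9 libraries without covariates, Benjamini-Hochberg adjusted p under 0.05. SE is the log2 fold change over the square root of F. The biological coefficient of variation, over all genes, was 0.0747. The fit was tested on simulated data. CPM uses TMM-scaled totals, and levels per kb use the longest principal transcript. Chi-square per degree of freedom between replicates was 7.44 to 33.4, so no library had been deposited again. For 6 h against untreated, same-numbered libraries deviated together (correlations 0.144 to 0.178, all over 0.1), so the numbers were taken to pair them there. Libraries with different numbers correlated at -0.006 at most. That low value is partly built in, because deviations from a group mean cancel within the group. The main fit does not use this pairing, and the replicate block was run as an alternative. The labels give only the numbers. Alternatives were DESeq2 1.42.0, limma-voom 3.58.1, other scalings and filters, rows of a symbol summed, the 6 libraries compared, a replicate block and leaving out each library. Near copies were sought with BLAST 2.17.0. Hm13, Spcs1, Clgn, Ern2 and Casp12 were not analysed here.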

Additional observations from a re-analysis of the deposited data

Results flagged for a closer look

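In 21 members the effects at 2 h and at 6 h differed by the test of the difference itself, the 6 h against the 2 h libraries (edgeR's quasi-likelihood test, Benjamini-Hochberg adjusted p under 0.05), in which the shared untreated libraries cancel. In that test 21.2% of the members rose and 42.4% fell, against 24.3% and 24.4% of all tested genes. Values are log2 fold changes of 6 h over 2 h. Among the sensors the difference was 0.32 for Ern1, 0.23 for Eif2ak3 and -0.15 for Atf6. Among the Hsp70 and Hsp90 chaperones and their partners it was 0.23 for Dnajb9, -0.33 for Hsp90b1, -0.21 for Dnajb11, -0.21 for Dnajc3 and -0.18 for Sdf2l1. Canx differed by -0.25, Pdia6 by -0.22, Pdia3 by -0.19 and Creld2 by 0.22. In the translocon and TRAP complex Sec61b differed by -0.45, Ssr1 by -0.37, Ssr2 by -0.21, Ssr3 by -0.15 and Sec63 by -0.14. In ER-associated degradation the difference was 0.38 for Syvn1, 0.21 for Herpud1, 0.20 for Edem1 and -0.17 for Derl1.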

How the results depend on the processing

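No member called in any comparison reversed under an alternative. Calls held under every alternative run for 6 of 9 members at 2 h (not Edem1, Sdf2l1 and Sec62), 18 of 22 at 6 h (not Calr, Derl2, Sec63 and Ssr2) and 16 of 21 between the times (not Atf6, Herpud1, Sdf2l1, Sec63 and Ssr3). Leaving out 1 library gave 3 to 5 members higher and 3 to 5 lower at 2 h, 6 higher and 12 to 15 lower at 6 h, and 6 to 8 higher and 11 to 14 lower between the times. Over all tested genes these fits gave 2218 to 2731 higher and 2134 to 2849 lower at 2 h. At 6 h they gave 3185 to 3420 higher and 3041 to 3385 lower. Between the times they gave 2851 to 3667 higher and 2916 to 3758 lower. The 3 lower at 2 h, of 5, came without untreated replicate 3. With total counts only, 12 members fell at 6 h and 10 between the times. Over 14363 tested genes, that scaling called 3212 lower at 6 h and 2912 between the times, against 3686 and 3498 in the main fit. The replicate block and the fit of only the 6 libraries compared each gave 18 lower at 6 h, both adding Hspa5 (-0.14) and Manf (-0.15). Over all tested genes, these fits called 3964 of 14363 and 3994 of 13981 lower. At 2 h same-numbered libraries correlated at 0.0904 to 0.184, not all over 0.1, while libraries with different numbers correlated at -0.0314 at most, a low value that is again partly built in. Between the times LPA 6 h replicate 2 correlated at 0.0347 with the same number and at up to 0.0729 with another. In these comparisons the block added Syvn1 at 2 h (-0.13, edgeR adjusted p = 0.0228) and Manf between the times (-0.12, edgeR adjusted p = 0.0327), and changed no other member's call. Syvn1 at 2 h was also called with DESeq2 (adjusted p = 0.0349) and limma-voom (adjusted p = 0.0498). Depth limits mainly Sec61g, whose SE was 0.13.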
